A study of Gallus gallus with 12 samples.

Results

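Female and male ganglion cells lay side by side in the same 4 droplet libraries of embryonic day 16 chick retina, and were told apart by HINTW, an RNA of the female-only W chromosome. Cells were chosen by their counts of HINTW and of 3 ganglion cell genes. Barcodes with at least 2000 UMIs and at least 2 UMIs of RBPMS2, NEFM and NEFL together were kept. Those with 3 or more HINTW UMIs were called female and those with 0 were called male. The rule chose 5385 of 9159 E16 barcodes, and of 95805 barcodes in the series. Dorsal library 1 held 175 female and 96 male cells, dorsal library 2 held 346 and 168, ventral library 1 held 1280 and 1116, and ventral library 2 held 1118 and 1086. Another 1173 barcodes met the UMI and marker minima but had 1 or 2 HINTW UMIs and were left out.

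The study profiled unmanipulated retinas of specific pathogen free chick embryos by droplet sequencing of transcript 3′ ends (10x Chromium, version 2). The E16 cells came from dorsal or ventral retina and were enriched for ganglion cells by magnetic beads carrying an antibody to Thy-1, with 2 libraries per region. Their titles and stage labels name E16, which was used here, whereas their description names E18, so the stage comparisons rest on the titles and stage labels. The series also holds 4 libraries each of whole retina at E18 and E12, with no enrichment. The labels give neither the sex nor the number of embryos, so a library may mix many embryos or few, and the libraries may share embryos. A difference between the sexes therefore cannot be told apart from one between the particular female and male embryos that gave the cells. The p-values of single genes come from edgeR, which shares estimates of variance across genes. A small p-value thus need not mean that the 4 libraries agree. HSPA2 passed (SE 0.05, adjusted p = 5.7e-09, edgeR) with opposite directions in dorsal and ventral libraries.

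In birds the male carries a pair of Z chromosomes and the female a single Z and a W. Birds have no known counterpart of the mammalian silencing of a whole X, and their dosage compensation of Z is described as partial and gene by gene. The W keeps a small set of genes, most with a diverged partner on Z, called a gametolog. Retinal ganglion cells are the output neurons of the eye, and their axons form the optic nerve.

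Counts were summed per library and sex, giving 8 sums of 252783 to 6274619 UMIs, and levels are given as CPM, the UMIs of a gene per 1000000 UMIs of its sum. The 4 ventral sums hold 4829397 UMIs or more and the 4 dorsal ones 1116696 or fewer, so the fits weigh the ventral libraries most. The chosen female cells were deeper. Median UMIs per cell were 2627, 2914, 4665.5 and 4723 in female cells of dorsal 1, dorsal 2, ventral 1 and ventral 2. In male cells they were 2440.5, 2700, 4190 and 4252.5. The rule counts HINTW UMIs, so the choice of cells is not independent of depth. At 0, 1 and 2 HINTW UMIs the median was 4190, 4658 and 4791.5 in ventral 1, but 2440.5, 2391.5 and 2362.5 in dorsal 1. How far the rule set the difference in depth was not tested. Ganglion cell genes that the rule did not use were read in both sexes. POU4F1, a transcription factor of these neurons, averaged 1036 CPM in female and 1034 CPM in male cells. THY1, the surface protein of the bead antibody, averaged 1192 and 1079 CPM. The beads selected for THY1 and no unchosen barcodes were compared, so these levels do not test the ganglion cell label. No UMI of HBA1, HBBA, HBE or HBZ, the hemoglobin genes that mark red blood cells, was counted in either sex. Pairs of E16 libraries shared 1 to 28 barcodes, which touched 49 chosen cells; without these cells 844 genes passed, against 832 with them.

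HINTW itself chose the cells, so its level is a description. It stood at 3386, 3215, 3182 and 3155 CPM in female cells of the 4 libraries, and at 0 in male cells by the rule. Around the threshold the other sex-linked genes moved with it. Cells with 3 HINTW UMIs took 3.46%, 3.76%, 4.00% and 4.05% of their UMIs from Z-linked genes in dorsal 1, dorsal 2, ventral 1 and ventral 2. Cells with 2 took 4.13%, 4.45%, 4.56% and 4.57%, and cells with 0 took 4.59%, 4.65%, 4.66% and 4.67%. The cells with 2 lay nearer to those with 0 in each library, least clearly in dorsal 1, where there were 10 of them. Cells with 10 or more were lowest, at 3.16% to 3.22%. The W-linked genes other than HINTW summed to 182 to 364 CPM at 3 HINTW UMIs and to 348 to 448 CPM at 10 or more, against 99.1 to 186 CPM at 2 and 75.2 to 113 CPM at 0. These sums include NEDD4L, which the annotation places on W but which did not follow the other W genes. It gave 63.3, 79.0, 68.2 and 70.8 CPM in male cells of the 4 libraries, most of the sum at 0 in each.

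**Figure D1:**
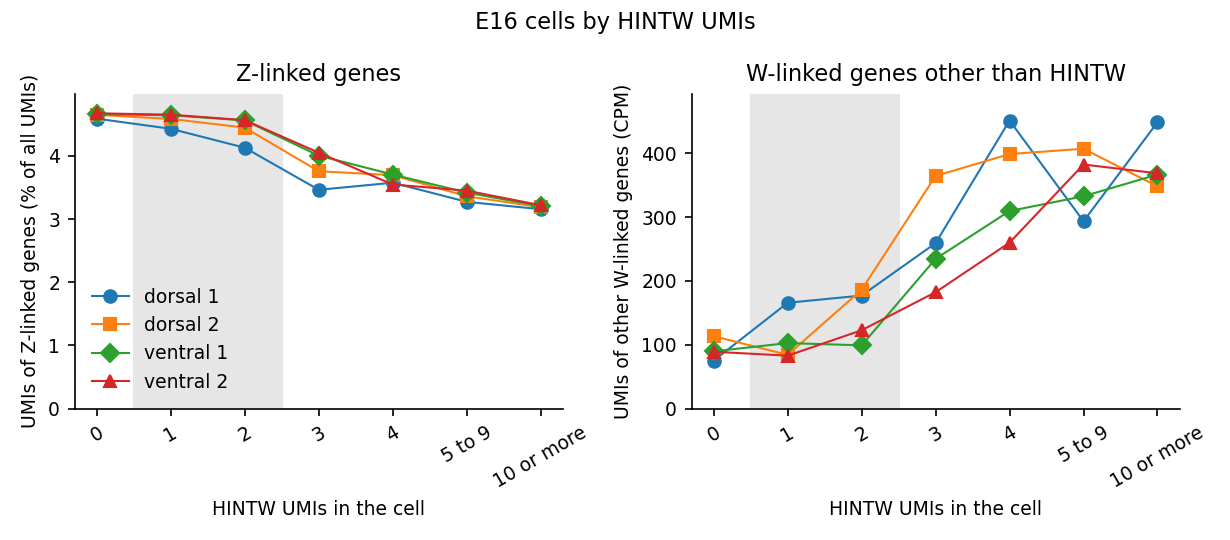
E16 cells binned by HINTW UMIs (x axis), with the percent of all UMIs from Z-linked genes (left) and the CPM of W-linked genes other than HINTW (right), 1 line per library. The right panel includes NEDD4L, which is most of the level at 0. The grey band marks the cells with 1 or 2 HINTW UMIs, which were left out; the Z share is 4.59% to 4.67% at 0 and 3.16% to 3.22% at 10 or more.

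The share of UMIs from Z-linked genes separated the sexes in each library. It was 3.24%, 3.30%, 3.28% and 3.29% in female cells of dorsal 1, dorsal 2, ventral 1 and ventral 2, against 4.59%, 4.65%, 4.66% and 4.67% in male cells. No female sum reached the lowest male sum. The female share averaged 3.28% ± 0.0268 and the male share 4.64% ± 0.0373 (SD, n = 4 libraries). The difference was -1.37 percentage points ± 0.0209 (SD), and the female share was 0.705 ± 0.00325 times the male one. The exact two-sided sign-flip permutation test over the 4 pairs gave p = 0.13, the smallest that 4 pairs allow. Cell by cell the distributions overlapped only at their edges: in ventral 1 the middle 90% of cells lay between 2.69% and 4.05% in females and between 3.95% and 5.38% in males.

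**Figure D2:**
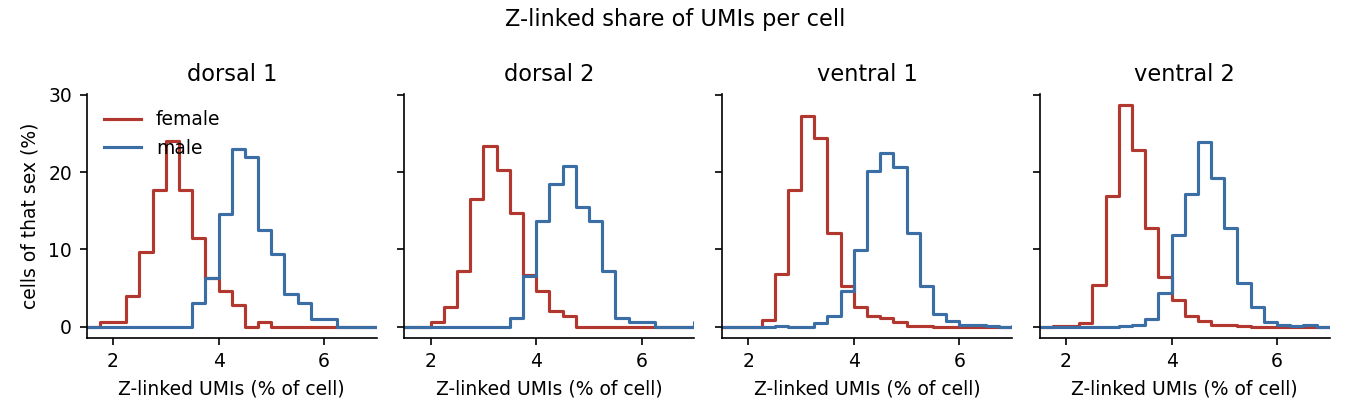
Percent of a cell's UMIs that came from Z-linked genes (x axis) against the percent of cells of that sex (y axis), for female and male cells of each E16 library. The medians are 3.16% to 3.25% in female cells and 4.54% to 4.67% in male cells.

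Across all genes, 832 of 10450 tested passed edgeR's quasi-likelihood test with the library as a block (Benjamini-Hochberg adjusted p under 0.05), or 7.96%. Of these 334 were higher in female cells (3.2% of those tested) and 498 were lower (4.77%). With library totals in place of TMM scaling, 470 were higher and 446 lower. The calls were unevenly spread over the chromosomes. Of 463 Z-linked genes 273 were lower in female cells and 5 were higher; of 14 W-linked genes 11 were higher and 1 lower. Of 9255 autosomal genes 279 were higher and 189 lower, or 5.06% called. Another 718 genes had no chromosome in the annotation used, with 39 higher and 35 lower. With female and male cells matched on depth within each library, 280 were higher and 454 lower. Without the library block 323 genes passed in all, and DESeq2 with the block called 191, of which 2 Z-linked genes were higher and 104 lower.

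The 11 W-linked genes that rose in female cells together gave 3887 UMIs in female cells and 139 in male cells. SPIN1W, the W partner of the chromatin reader SPIN1Z, gave 65.2, 70.7, 74.8 and 68.3 CPM in female cells, against 3.96, 10.1, 2.06 and 2.48 CPM in male cells (log2 difference 4.69, SE 0.17, adjusted p = 1.2e-45, edgeR). NIPBLL, named for the cohesin loader NIPBL, averaged 40.1 ± 4.72 CPM in female and 0.868 ± 0.848 CPM in male cells (SD, n = 4). CHDB1, the W copy of the chromatin remodeler gene CHD1 that is widely used to sex birds, averaged 25.8 ± 2.04 and 0.258 ± 0.310 CPM. HNRNPKL, UBE2R2L and SMAD7B, named for an RNA-binding protein, a ubiquitin-conjugating enzyme and an inhibitory SMAD, averaged 29.3, 35.3 and 5.65 CPM in female cells and 0.569, 1.54 and 0.155 CPM in male cells. Female and male levels of these 6 genes did not overlap. Of the 14 tested W-linked genes 12 were higher in female cells in 4 of 4 libraries, passing or not, beside 1278 of all 10450 genes tested. Whether the male UMIs are free RNA taken up in the droplets was not tested. SMAD7B had 3 male UMIs in all, so its ratio of 18.5 has a 95% counting interval of 6.08 to 91.8.

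NEDD4L, the gene of a ubiquitin ligase, is placed on W in the annotation but did not follow the W genes. It gave 57.0, 69.0, 49.9 and 47.4 CPM in female cells, against 63.3, 79.0, 68.2 and 70.8 CPM in male cells, lower in females in each library (log2 difference -0.49, SE 0.08, adjusted p = 1.2e-06, edgeR). It was also read at 49.8 to 54.3 CPM in the E18 libraries, where no HINTW UMI was counted. Both values go against the placement.

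Several genes that the annotation does not place rose as far as the W genes. LOC112530494 was the most abundant of them, at 682, 683, 898 and 908 CPM in female cells, against 15.8, 18.2, 22.9 and 15.7 CPM in male cells (log2 difference 5.51, SE 0.07, adjusted p = 2.7e-89, edgeR). TERAL2 averaged 92.9 ± 17.3 CPM in female and 1.33 ± 0.922 CPM in male cells, ST8SIA3W 58.3 ± 4.83 and 1.23 ± 0.881 CPM, and RPTC15L 50.5 ± 6.82 and 3.22 ± 3.34 CPM (SD, n = 4). ATP5A1W, the W copy of a subunit of the mitochondrial ATP synthase, gave 441 female and 28 male UMIs in all, and SMAD2W gave 126 and 2, a ratio of 49.2 (95% counting interval 13.4 to 411). These 6 genes were at 0 to 0.236 CPM in the E18 libraries, where no HINTW UMI was counted. LOC112530273, also without a chromosome, rose furthest of all, by 6.90, but was read there at 34.2 to 49.6 CPM.

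On Z the size of the fall varied from gene to gene. The median log2 difference over the 463 tested genes was -0.50, against 0.0092 over the autosomal genes, with quartiles at -0.73 and -0.27. In single libraries the Z median was -0.48, -0.46, -0.48 and -0.49, over genes that averaged at least 20 CPM in either sex. These medians were taken on log2(CPM + 1) without TMM scaling. On the same measure the autosomal medians were 0.031, 0.036, 0.022 and 0.022. A log2 difference of -0.8 or lower, near what a single copy against a pair would give, was found for 67 genes, or 14.5%. The differences of 224 genes lay between -0.8 and -0.4, those of 147 between -0.4 and 0, and 25 were above 0. Of the 273 that fell, 196 were lower in female cells in 4 of 4 libraries, beside 236 of all 463 tested Z genes. The median was -0.53 in the third of Z genes with the lowest levels and -0.45 in the third with the highest. Gametologs are similar in sequence, and how the deposited counts split reads between partners is not given in the sources used here.

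**Figure D3:**
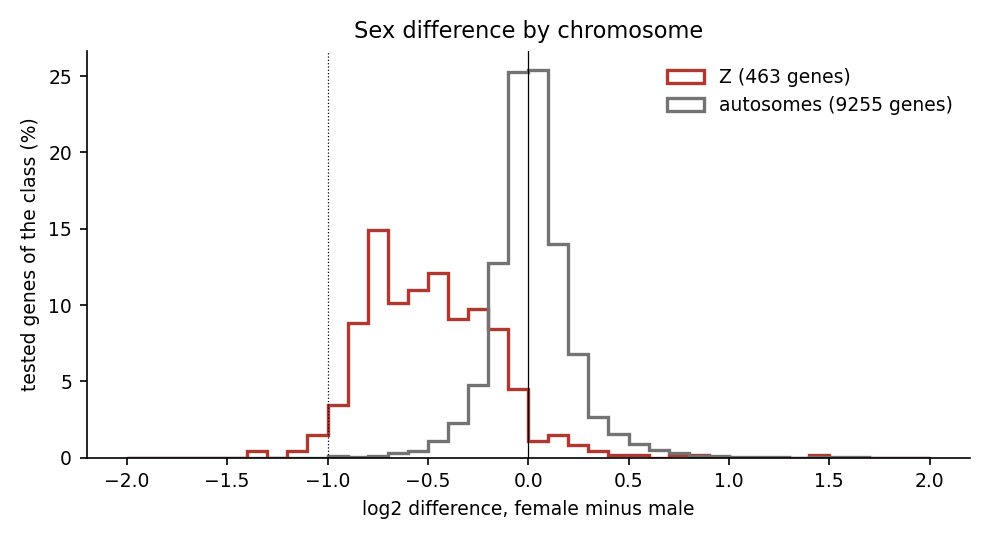
Distribution of the fitted log2 difference, female minus male (x axis), over tested Z-linked and autosomal genes, as a percent of the class (y axis); the dotted line marks -1. The Z median is -0.50 and the autosomal median 0.0092; genes beyond the axis range are not drawn.

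The largest falls among Z genes of at least 50 CPM were led by STARD4, a sterol carrier. It gave 34.6, 55.5, 35.5 and 36.8 CPM in female cells, against 103, 91.1, 68.0 and 67.1 CPM in male cells (log2 difference -0.93, SE 0.09, adjusted p = 4.7e-16, edgeR). The ribosomal protein genes RPS23, RPL17 and RPS6 were the most abundant of this group. RPS23 gave 1562, 1721, 1802 and 1768 CPM in female cells, against 3030, 3246, 3270 and 3277 CPM in male cells (log2 difference -0.90, SE 0.03, adjusted p = 2.2e-53, edgeR). RPL17 averaged 1352 ± 59.7 and 2474 ± 89.6 CPM, and RPS6 1227 ± 45.7 and 2225 ± 72.3 CPM (SD, n = 4). Female and male levels of these 4 genes did not overlap. STARD4 came close, with a highest female level of 55.5 CPM and a lowest male level of 67.1 CPM. The 4 were chosen as large falls of one direction in 4 of 4 libraries, so the lack of overlap is not a separate result. The share of all Z genes without overlap was not counted. RPL37, another Z-linked ribosomal protein gene, fell by 0.43 on the log2 scale. All 4 tested Z-linked ribosomal protein genes fell, beside 59.0% of all tested Z genes. Of 73 autosomal genes whose symbols begin with RPS or RPL and a number, 2 were higher and 15 lower in female cells, with a median of -0.05. Such symbols need not all name ribosomal proteins. Over all autosomal genes 3.02% were higher and 2.04% lower. PIGG, an enzyme of the GPI anchor pathway, TPGS2, a subunit of the tubulin polyglutamylase complex, and FAM174A fell by 0.91, 0.89 and 0.84.

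Of 23 genes listed as Z partners of W genes, 22 were lower and 1 higher in female cells, with a median of -0.69. Over all tested Z genes 59.0% were lower, with a median of -0.50, and over all genes tested the median was 0.0021. The annotation placed 21 of the 23 on Z. NEDD4L, which it places on W, and ZFR, which has no chromosome, were among those lower. HINT1Z, the partner of HINTW, gave 578, 492, 531 and 509 CPM in female cells, against 843, 678, 873 and 825 CPM in male cells (log2 difference -0.69, SE 0.03, adjusted p = 1.6e-33, edgeR). SPIN1Z averaged 152 ± 6.93 CPM in female and 271 ± 14.1 CPM in male cells. CHD1Z averaged 23.5 and 49.2 CPM, ATP5A1Z 93.0 and 173 CPM, and HNRNPK 146 and 216 CPM. DESeq2 called 15 of the 23. The highest member was UBAP2, which the annotation places on Z but which gave 163 female and 6 male UMIs and 1 UMI in all E18 libraries. Another gene placed on Z behaved alike: LOC100859072 gave 87.6, 86.0, 72.0 and 80.4 CPM in female cells, against 0, 2.02, 0.825 and 1.45 CPM in male cells. Its tested neighbours in the annotation, SLC1A1 and CDC37L1, had log2 differences of -0.13 and 0.012.

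Of 22 tested neural regulators on Z, 11 fell and KLF9 rose in female cells, with a median of -0.23. Over all tested Z genes 59.0% fell and the median was -0.50. DESeq2 called 4 of these 12, and 6 passed without ventral 1. ISL1, a transcription factor of ganglion, amacrine and bipolar neurons, gave 301, 273, 272 and 270 CPM in female cells, against 419, 510, 427 and 432 CPM in male cells (log2 difference -0.70, SE 0.04, adjusted p = 5.6e-28, edgeR). SETBP1 averaged 167 ± 27.3 and 247 ± 26.5 CPM, and GNAQ, a G protein subunit, 93.0 and 118 CPM. MAP1B, a microtubule-associated protein of axons and the most abundant of the list, fell by 0.15 (SE 0.03, adjusted p = 8.7e-06, edgeR), with 2203 ± 240 CPM in female and 2409 ± 278 CPM in male cells. PTPRD, a receptor phosphatase of synapses, fell by 0.29, and was lower in female cells in 3 of 4 libraries. It did not pass without ventral 2 (-0.19, adjusted p = 0.153, edgeR), without the library block (-0.20, adjusted p = 0.416, edgeR) or with DESeq2 (-0.22, adjusted p = 0.238), and was at -0.011 in the dorsal libraries alone. NR2F1, NTRK2, HOMER1, SV2C and SLC1A1 did not pass, at -0.06, -0.12, -0.09, -0.02 and -0.13. KLF9, a transcription factor induced by thyroid and steroid hormones, gave 326, 282, 148 and 153 CPM in female cells, against 226, 233, 124 and 135 CPM in male cells (log2 difference 0.23, SE 0.05, adjusted p = 0.00116, edgeR). Without ventral 1 its adjusted p was 0.1, and with DESeq2 it was 0.15. The other Z genes called higher, CRHBP at 1.42 and SELENOP1 at 0.75, were higher in female cells in only 2 of 4 libraries each.

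Of the listed genes of energy metabolism that were tested, the annotation placed 3 on Z, and all 3 fell. COX7C, a cytochrome c oxidase subunit, gave 668, 651, 703 and 683 CPM in female cells, against 1183, 1221, 1207 and 1178 CPM in male cells (log2 difference -0.82, SE 0.03, adjusted p = 5.5e-43, edgeR). NDUFS4 and NDUFAF2, a subunit and an assembly factor of respiratory complex I, fell by 0.68 and 0.75. The 4 listed ones placed on autosomes, NDUFS6, SDHA, NDUFB6 and VDAC3, lay between -0.08 and 0.12 and none passed.

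Along the chromosome the fall was spread throughout. In consecutive blocks of 50 tested genes the median ran from -0.61 to -0.40, and 23 to 37 genes per full block fell. The least negative block ran from TBCA to GLDC, with a median of -0.40; 23 of its genes fell and 2 rose. The most negative ran from FRMD3 to MAN2A1, at -0.61, closely followed by the block from NARS to PHF24, also at -0.61.

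**Figure D4:**
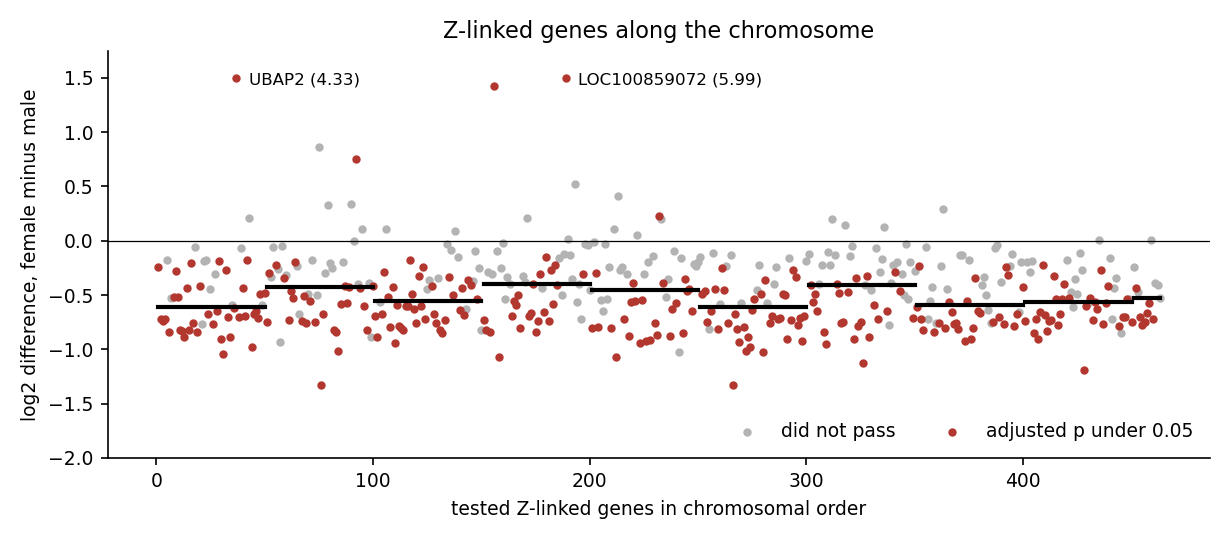
Log2 difference, female minus male (y axis), of the 463 tested Z-linked genes in chromosomal order (x axis), with genes past adjusted p under 0.05 in red and others in grey. Black bars are medians of consecutive blocks of 50 genes and run from -0.61 to -0.40; UBAP2 and LOC100859072 lie off the axis and are drawn at its upper end with their values.

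Genes of sex determination and steroid signalling were hardly read. Of 20 listed, 5 had no UMI, among them the Z-linked testis gene DMRT1, the estrogen receptor ESR1 and the aromatase CYP19A1. The 5 tested had a median of 0.0088, and 1 fell, HSD17B4, a Z-linked peroxisomal enzyme of fatty acid and steroid metabolism. It averaged 10.1 ± 1.79 CPM in female and 21.2 ± 7.72 CPM in male cells (log2 difference -1.19, SE 0.16, adjusted p = 3.7e-09, edgeR). AMH, the anti-Müllerian hormone, averaged 8.61 and 11.2 CPM with no passing difference.

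Ganglion cell identity genes stood close together in the sexes. Of 16 tested besides the 3 marker genes of the rule, 2 were higher and 3 lower in female cells, with a median of -0.05, beside 3.2% higher and 4.77% lower of all genes tested. THY1 rose by 0.12 and TUBB3, a neuronal tubulin, by 0.12. POU4F2, the ganglion cell factor also called Brn3b, averaged 628 ± 178 CPM in female and 661 ± 158 CPM in male cells, with a log2 difference of -0.14. EBF1 and RBPMS were at -0.13 each. None of the 5 passed without ventral 1 or without ventral 2, and DESeq2 called none of the 16. Of 21 genes marking subsets of ganglion cells, 5 rose and 3 fell, with a median of -0.08, against the same shares over all genes. EOMES, a factor of a ganglion cell subset that in mice includes the melanopsin cells, averaged 22.4 ± 15.7 and 11.9 ± 11.6 CPM (log2 difference 0.69, SE 0.13, adjusted p = 2.8e-05, edgeR). The neuropeptide genes NTS and NPFF differed by 0.75 and 0.79, and PCP4 by 0.22. NPFF did not pass with doublets left out (0.12, adjusted p = 0.804, edgeR) or with the sexes matched on depth (0.21, adjusted p = 0.65, edgeR), and was at -0.093 when cells were thinned to 2000 UMIs. PCP4 did not pass without ventral 1 (0.11, adjusted p = 0.722, edgeR) or without ventral 2 (0.16, adjusted p = 0.507, edgeR). PCP4 was higher in female cells in the ventral libraries and lower in the dorsal ones. EOMES had 32.8 and 37.9 CPM in female cells of ventral 1 and 2, against 20.0 and 23.6 CPM in male cells. In dorsal 1 and 2 it had 14.2 and 4.48 CPM, against 0 and 4.05 CPM. The EOMES difference was not called different between regions (dorsal minus ventral 0.84, SE 1.04, adjusted p = 0.992, edgeR). EOMES did not pass when cells were thinned to 2000 UMIs (0.32, adjusted p = 0.396, edgeR). DESeq2 called none of the 21. Of 15 tested genes that pattern the retina, 2 fell, TBX2 by 0.30 and EPHA5 by 0.19, and neither passed without ventral 1, without ventral 2 or with DESeq2.

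Outside the sex chromosomes most calls were small: of the 468 autosomal genes, 346 differed by less than 0.5 on the log2 scale. Of the 468, 296 differed one way in 4 of 4 libraries. Of all 9255 autosomal genes tested, passing or not, 1154 were higher and 668 lower in female cells in 4 of 4 libraries. The number of calls moved with the fit. DESeq2 called 40 autosomal genes, 26 higher and 14 lower, and 78 passed without the block. Without ventral 1 there were 98 and without ventral 2 there were 76. The numbers of genes entered, over all chromosomes, differed as well. They were 18026 for DESeq2, 10450 without the block, 7755 without ventral 1 and 7742 without ventral 2, against 10450 in the main fit. With library totals the split was 408 higher and 147 lower, against 279 and 189 with TMM.

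The autosomal rises in female cells were led, among genes of at least 50 CPM, by TFAP2B, a transcription factor of amacrine and horizontal interneurons. It gave 32.6, 67.2, 87.5 and 72.7 CPM in female cells, against 3.96, 20.2, 26.8 and 28.4 CPM in male cells (log2 difference 1.54, SE 0.09, adjusted p = 2.9e-27, edgeR). Of 7 tested amacrine genes 5 rose, with a median of 0.97, and none fell, beside 3.2% higher of all genes tested. TFAP2A, SLC32A1, the vesicular GABA transporter, and GAD2 and GAD1, the GABA-making enzymes, differed by 0.97, 0.99, 1.13 and 0.96, whereas PAX6 and SLC6A9 were at 0.030 and 0.011. DESeq2 called 2 of the 7, and edgeR called 2 without ventral 1 and 2 without ventral 2. The summed level of the list ran from 509 to 712 CPM in female and from 494 to 576 CPM in male cells, most of it PAX6.

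Cells carrying amacrine RNA were more common among female cells. Those with at least 2 UMIs of TFAP2A, TFAP2B, TFAP2C, GAD1, GAD2, SLC6A9 and SLC32A1 made up 2.86%, 5.49%, 8.91% and 9.48% of female cells in dorsal 1, dorsal 2, ventral 1 and ventral 2, against 2.08%, 3.57%, 4.66% and 5.53% of male cells. Doublet scores were uneven too: 137 of 2919 female cells (4.69%) and 44 of 2466 male cells (1.78%) were scored as doublets. The rule is not neutral here. A droplet holding a female and a male cell can carry HINTW and be chosen as female, whereas male cells had to have 0 HINTW UMIs. The part of such droplets in the uneven doublet and amacrine shares was not tested. With the scored doublets left out TFAP2B differed by 1.56 and TFAP2A by 1.04. Without the cells carrying amacrine RNA the difference of TFAP2B, which was itself used to find them, was 0.036 (adjusted p = 0.98, edgeR). The Z median was then -0.52 and 771 genes passed, 414 of them autosomal. Of the other cell types, 2 tested Müller glia genes, 1 photoreceptor gene and 2 oligodendrocyte genes did not pass. The photoreceptor list summed to 4.07 to 14.3 CPM in female and 7.84 to 10.1 CPM in male cells. Of the bipolar genes OTX2 had no UMI. The horizontal list had TFAP2B as its only rise among 3 tested.

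Genes of the stress and early response moved in both directions, with 5 of 13 higher, 3 lower and a median of 0.076, beside 3.2% higher and 4.77% lower of all genes tested. DESeq2 called 4 of these 8, each higher in female cells. The risers were PHGDH, ATF3, DDIT3, CHAC1 and ASNS; textbook targets of the integrated stress response include ATF3, DDIT3, CHAC1 and ASNS, and PHGDH makes serine. PHGDH gave 61.1, 62.7, 132 and 114 CPM in female cells, against 35.6, 72.9, 50.3 and 51.8 CPM in male cells (log2 difference 1.16, SE 0.08, adjusted p = 1.1e-23, edgeR). It stood above the male level in dorsal 1 and both ventral libraries and below it in dorsal 2. ATF3 averaged 46.1 ± 16.5 and 25.5 ± 16.6 CPM, with a log2 difference of 1.09, and DDIT3 408 ± 64.8 and 312 ± 86.6 CPM, with 0.36. CHAC1 and ASNS rose by 1.27 and 0.54. JUN, FOS and the chaperone gene HSPA2 fell by 0.30, 0.15 and 0.36. The fall of HSPA2 was that of the ventral libraries, at -0.52 there and 0.41 in the dorsal ones (adjusted p = 3.8e-44 and 0.00848, edgeR). HSPA2 did not pass without ventral 1 (-0.16, adjusted p = 0.143, edgeR), without ventral 2 (-0.11, adjusted p = 0.745, edgeR) or with DESeq2 (-0.061), and averaged 543 CPM in female and 547 CPM in male cells. Without the cells carrying amacrine RNA, PHGDH differed by 1.09 and ATF3 by 1.29. Within the dorsal libraries alone PHGDH was at 0.02 and ATF3 at 0.34, and neither passed.

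BGLAP, the gene of osteocalcin, rose as well, with 112, 117, 138 and 124 CPM in female cells, against 71.2, 38.5, 61.0 and 63.4 CPM in male cells (log2 difference 1.07, SE 0.07, adjusted p = 1.2e-25, edgeR). The largest falls off Z and W at that level were mostly in genes without a chromosome in the annotation. CZH5ORF63, NIPSNAP3L, QPRT, an enzyme of NAD synthesis, and CZH18ORF32 fell by 0.84, 0.81, 0.77 and 0.58. CZH is the prefix of open reading frames named on chicken Z. QPRT gave 106, 93.1, 122 and 111 CPM in female cells, against 182, 178, 199 and 189 CPM in male cells. On autosomes HIST1H4I, a histone H4 gene, and NAA38, a subunit of an N-terminal acetyltransferase, fell by 0.54 and 0.53.

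**Figure D5:**
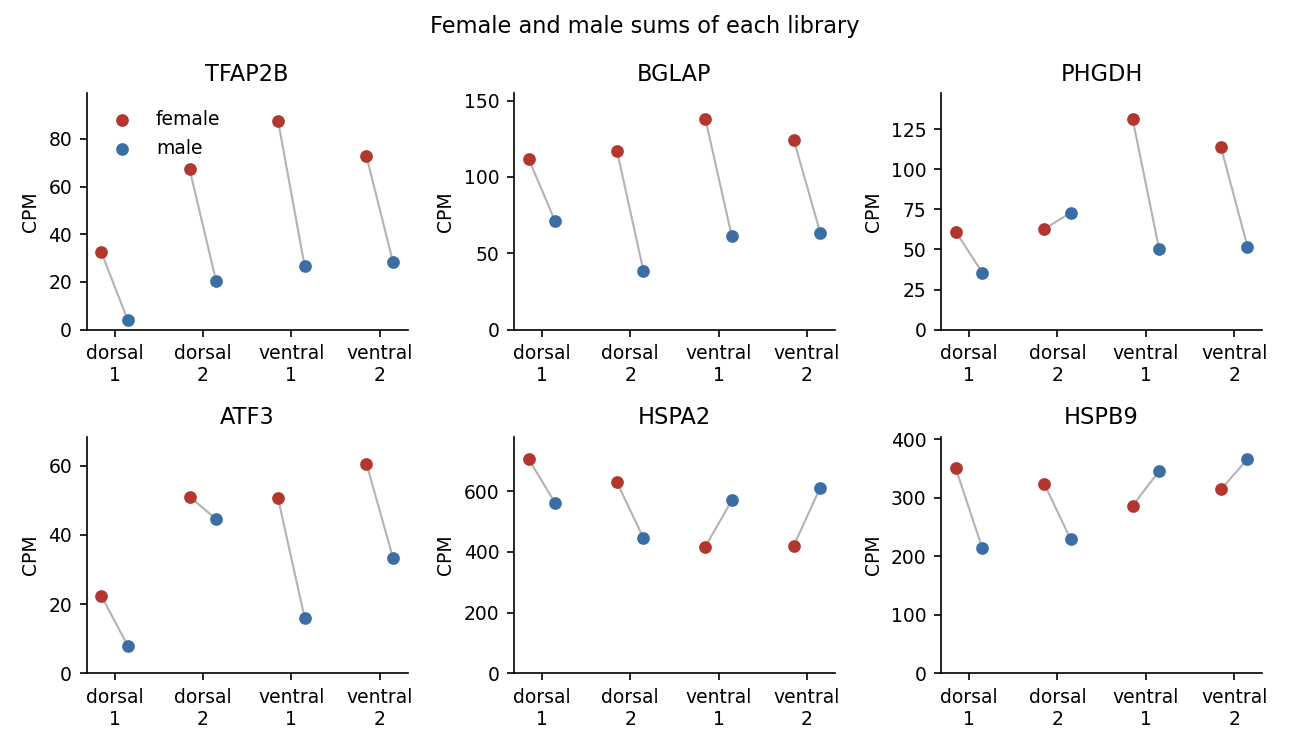
CPM (y axis) of 6 genes in the female and male sum of each E16 library (x axis); a grey line joins the sums of a library. TFAP2B and BGLAP are higher in female cells in 4 of 4 libraries, PHGDH is not in dorsal 2, and HSPA2 and HSPB9 are higher in female cells in dorsal and lower in ventral libraries.

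The sex difference was then compared between dorsal and ventral cells. Of 11126 genes tested for the sex by region term, 7 passed (0.0629%), and 6 of them had the more positive difference in dorsal cells. HSPA2 gave 707 and 630 CPM in dorsal female cells, against 562 and 446 CPM in dorsal male cells, while ventral female cells had 417 and 420 CPM, against 570 and 612 CPM in ventral male cells (difference of log2 differences 0.95, SE 0.10, adjusted p = 1.1e-17, edgeR). HSPB9, a small heat shock protein gene, followed the same order, with 350 and 324 CPM against 214 and 229 CPM in dorsal cells, and 286 and 314 CPM against 346 and 366 CPM in ventral cells (0.84, SE 0.14, adjusted p = 4e-06, edgeR). ANGPTL4, a secreted inhibitor of lipoprotein lipase, differed by 1.28 (adjusted p = 0.00719, edgeR). PHGDH went the other way, at -1.21 (adjusted p = 0.0372, edgeR). C10orf10, SS2 and LOC107056991, named here after their values were seen, differed by 0.80, 0.63 and 1.84. No Z-linked gene passed: the Z median was -0.44 in the dorsal libraries alone, where 46 Z genes fell and 1 rose of 254 tested, and -0.51 in the ventral libraries alone, where 282 fell and 5 rose of 503. Without ventral 2 the term passed for 3 genes.

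The same rule applied to E12 whole retina gave 100, 129, 121 and 114 female cells and 905, 941, 887 and 933 male cells, and at E18 it gave no female cell among 1328. HINTW marked the E12 cells less sharply. Female cells there had a median of 4 or 5 HINTW UMIs and 1551 to 1714 CPM. Their Z share ran from 4.51% to 4.69% at 3 UMIs down to 3.54% to 4.03% at 10 or more, against 5.25% to 5.30% at 0. Only 3, 8, 4 and 6 cells of the 4 E12 libraries had 10 or more. Cell by cell the sexes overlapped more than at E16: the upper quartile of female cells lay at 4.76% to 4.95%, against a lower quartile of 4.91% to 4.96% in male cells. The Z share of the sums was 4.31% ± 0.0149 in female and 5.28% ± 0.0179 in male cells (SD, n = 4), a difference of -0.97 percentage points (exact two-sided sign-flip permutation test, p = 0.13, the smallest possible). The cells also differed in kind: 47.4% to 51.2% of the female cells carried at least 2 UMIs of the amacrine genes, against 25.4% to 29.2% of the male cells.

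At E12, 997 of 9145 genes passed (10.9%). Of 422 Z-linked genes 77 were lower and 10 higher in female cells, with a median of -0.27, and of 8 W-linked genes 7 were higher. With female cells taken at 5 or more HINTW UMIs the Z median was -0.31. Of the 273 Z genes that fell at E16, 264 were tested at E12: 238 were lower there (90.2%, beside 79.6% of all Z genes tested at E12), 71 passed as lower and 1 as higher. SPIN1W gave 27.9 to 51.1 CPM in female cells, against 1.11 to 2.13 CPM in male cells. RPS23 gave 3949 to 4270 CPM, against 5034 to 5228 CPM, and ISL1 366 to 427 CPM, against 497 to 532 CPM. Of the autosomal genes called lower at E16, 177 were tested at E12, with 50 passing as lower and 16 as higher. In all 116 of them were lower there (65.5%, beside 47.1% of all autosomal genes tested at E12). Of those called higher at E16, 253 were tested, with 52 passing as higher and 18 as lower. In all 152 of these were higher there (60.1%, beside 52.9%). Over the 8194 autosomal genes tested at E12, 438 passed as higher and 405 as lower.

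A test of the sex by stage term passed for 677 of 10254 genes (6.6%), 393 with the more positive difference at E16. Of 457 Z genes tested, 36 were more negative and 8 more positive at E16, with a median of -0.21. Over all 10254 genes 284 were more negative and 393 more positive, with a median of 0.017. RPS23, RPS6, SPIN1Z and RPL17 differed by -0.52, -0.49, -0.50 and -0.41, and FAM174A by -0.75. Of 12 W-linked genes none passed. PHGDH stood at 519 to 596 CPM in E12 female cells, against 48.1 to 56.5 CPM in E12 male cells, and its difference was smaller at E16 by 2.20. The stress genes STC2 and CHAC1 and the peptide gene PRLH were likewise more positive at E12, by 3.07, 2.39 and 2.43. PRLH stood at only 0 to 4.07 CPM in the E16 sums and was not tested in the E16 fit. At E12 it gave 16.6 to 156 CPM in female and 11.5 to 21.4 CPM in male cells. POU4F2 and TUBB3 moved the other way, by 0.83 and 0.73: POU4F2 gave 310 to 465 CPM in E12 female cells, against 690 to 743 CPM in E12 male cells. SYNDIG1, MGLL and RMI2 were more positive at E16 by 1.36, 1.57 and 1.41. The part of the different cell makeup at E12, and of the less sharp split by HINTW there, in these differences was not tested.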

How the data were processed

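The deposited tables hold UMI counts per gene and barcode, whole numbers with no normalization per the file headers and values; Cell Ranger 2.1.0 and the build GRCg6a are named in the submitters' processing notes, with no role. Chromosomes and gene order came from a RefSeq gene table of assembly GRCg7b: of 23726 genes 18305 matched by symbol, 93 by gene ID and 319 by synonym, and 5009 had no chromosome. Cells were chosen by HINTW, and the members and lists were chosen with earlier results of these data known. Counts were summed per library and sex, HINTW was left out, and edgeR 4.0.16 (filterByExpr, TMM, quasi-likelihood, library block, R 4.3.3) tested 10450 genes with Benjamini-Hochberg adjustment; both sexes lie in each library, which makes the pairs. On simulated counts over these 10450 genes the fit called 77 of 100 genes changed 1.5-fold, 94 of 100 changed 2-fold and 5 of 10250 unchanged ones. These counts were drawn from the model that the fit assumes, without embryo effects or sex differences that vary between libraries. They therefore do not give the share of false calls in the real data. Doublets were kept; leaving out 210 scored barcodes was an alternative, as were DESeq2 1.42.0, library totals, TMM from autosomal genes, no filter, no block, leaving out each library, other HINTW, UMI and marker thresholds and thinning to 2000 UMIs; matching on depth, single regions, cells without amacrine UMIs and shared barcodes were added after seeing the data. Single cells were not treated as replicates, and intervals cover counting error only. Named genes were those on W with a symbol; the largest Z-linked and other changes of one direction in all 4 libraries at 50 CPM or more; up to 4 per list by adjusted p; and up to 3 each way for the region and stage terms; some are not reported here. A log2 difference is female minus male. Levels per gene were not compared per length, since the counts come from transcript 3′ ends.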

Additional observations from a re-analysis of the deposited data

Results flagged for a closer look

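Chance alone sets about 1 in 20 groups of 4 apart by the measure used for a library far from the others. Applied to 40 results, the measure set a library apart for HIST1H4I and NDUFAF2. The female minus male difference of dorsal 1, on log2(CPM + 1), was -1.46 in each.

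The sex difference differed between dorsal and ventral cells, by the sex by region term, for HSPA2 (0.95), PHGDH (-1.21), LOC107056991 (1.84), C10orf10 (0.80), SS2 (0.63), HSPB9 (0.84) and ANGPTL4 (1.28).

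By the sex by stage term it differed between E16 and E12 for genes more negative at E16: ATF3 (-1.81), CHAC1 (-2.39), COX7C (-0.29), DDIT3 (-1.69), FAM174A (-0.75), ISL1 (-0.28), PHGDH (-2.20), PRLH (-2.43), RPL17 (-0.41), RPS23 (-0.52), RPS6 (-0.49), SETBP1 (-0.42), SPIN1Z (-0.50) and STC2 (-3.07). It was more positive at E16 for EBF1 (0.33), MGLL (1.57), POU4F2 (0.83), PTPRD (0.49), RMI2 (1.41), SYNDIG1 (1.36), TFAP2B (0.61), THY1 (0.47) and TUBB3 (0.73). The makeup of the chosen cells differed between the stages as well, as the amacrine UMIs show. PRLH was near the floor at E16, at 0 to 4.07 CPM in the sums.

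LOC112530273, which has no chromosome in the annotation, was female-high at E16 and not at E12 (difference between stages 7.51), and it reached 49.6 CPM in an E18 library although no E18 barcode had a HINTW UMI.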

How the results depend on the processing

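The Z median stayed negative under every alternative run. It was -0.48 with library totals and -0.44 in dorsal libraries alone, and -0.51 to -0.48 with a library left out. The Z share differed by -1.40 to -1.35 points under the cell-level alternatives and by -1.38 to -1.36 with a library left out. Calls in all, Z and autosomal calls were 191, 106 and 40 with DESeq2, and 86, 47 and 19 in dorsal libraries alone. Without the replicate block all and autosomal calls were 323 and 78, at 4000 UMIs 418 and 171, and thinned to 2000 UMIs 448 and 200. With a library left out they ranged from 262 to 915, Z calls from 147 to 282 and autosomal calls from 76 to 535, lowest without ventral 2. Fewer UMIs or libraries enter the fits that thin, raise the UMI minimum or leave libraries out; for DESeq2 and the block the cause was not tested. The region term passed for 3 to 8 genes with a library left out. E12 calls were 434 with DESeq2 and 710 to 842 with a library left out, and the stage term passed for 471 to 703. Directions turned for HSPB9 with DESeq2 (0.093) and with a library left out (-0.23 to 0.013, positive without ventral 1), for NPFF when thinned (-0.093), for TFAP2A (-0.019) without amacrine-marked cells, and in dorsal libraries alone for EBF1 (0.077), PCP4 (-0.29), HSPA2 (0.41), ANGPTL4 (0.77), HSPB9 (0.56) and SYNDIG1 (0.068). TFAP2A was itself used to find the amacrine-marked cells. Of 1206 further values of named genes, 1083 kept direction and side of the threshold. DESeq2 at E12 and E16 used the block; 96 to 346 cells per sex limit what the dorsal libraries show.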

Other observations

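Of the genes off W that passed at E16 and were at least 4-fold higher in female cells, 19 in all, 13 stayed at or under 0.236 CPM in the E18 libraries, where no HINTW UMI was counted. The other 6 were read there at 1.89 to 49.6 CPM. They were LOC112530273 and LOC112532702, which have no chromosome, LOC112529954 and LOC112533543 on chromosome 16, and LOC101748259 and LOC101752000 on chromosome 27, chosen after their values were seen. LOC112530273 gave 83.5, 94.0, 110 and 112 CPM in E16 female cells of dorsal 1, dorsal 2, ventral 1 and ventral 2, against 0, 0, 1.03 and 0.828 CPM in male cells, and 34.2 to 49.6 CPM at E18. At E12 it had 8 UMIs in female and 94 in male cells, or 5.58 and 8.52 CPM over all E12 libraries. LOC112533543 averaged 6.17 CPM in E16 female and 1.40 CPM in E16 male cells, and had 4.88 and 7.80 CPM over all E12 libraries. At E16, 2 genes off W were at least 4-fold lower in female cells. LOC107049500 on chromosome 25 averaged 2.39 CPM in female and 21.0 CPM in male cells. At E12 it had 7 UMIs in female and 2 in male cells, or 4.88 and 0.181 CPM over all E12 libraries. In the E18 libraries LOC107049500 stood at 65.1 to 72.8 CPM. The other gene, LOC107050798, had 4.2 CPM in female and 7.1 CPM in male cells over all E12 libraries.

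BGLAP, which averaged 123 ± 11.3 CPM in E16 female and 58.5 ± 14.1 CPM in E16 male cells (SD, n = 4), stood at 52.3 to 56.3 CPM in the E18 libraries. RMI2, a gene of the BLM helicase complex, averaged 58.8 ± 4.41 and 28.8 ± 2.43 CPM at E16. It stood at 16.1 to 30.7 CPM in E12 female cells, against 28.4 to 35.2 CPM in E12 male cells, and at 21.1 to 25.4 CPM at E18.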
